A study of Mus musculus with 24 samples.

Results

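The genes described here are 7 nucleic acid sensors and interferon regulators, RIGI, IFIH1, STING1, TLR3, DDX60, IRF7 and IRF9, out of 14884 genes measured. They were chosen by gene symbol, and each was read by the probe set with the highest mean over all 24 arrays. Each had a single probe set: 17093090 for RIGI, 16904365 for IFIH1, 17000650 for STING1, 16972993 for TLR3, 16981219 for DDX60, 16733995 for IRF7 and 16782687 for IRF9. The samples were plasmacytomas of MM.1S, a human multiple myeloma cell line, grown with Matrigel under the skin of immunodeficient CB17-SCID mice, and all 8 groups shared this model. The treated groups were filanesib, pomalidomide and dexamethasone together (the triple combination), filanesib plus pomalidomide, pomalidomide plus dexamethasone, filanesib plus dexamethasone, and each of the 3 drugs alone, at 10 mg/kg filanesib, 8 mg/kg pomalidomide and 0.5 mg/kg dexamethasone for 2 days. The control group is labelled as untreated and, per the labels' protocols, received the vehicle PBS. Filanesib inhibits the mitotic kinesin KIF11, pomalidomide recruits new protein substrates to the ubiquitin ligase receptor cereblon, and dexamethasone activates the glucocorticoid receptor. Each group had 3 arrays, so each drug was present on 12 arrays and absent from 12.

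The labelled organism is the mouse, while the probe sets are annotated with human genes, so a value reflects the human tumour cells plus any host RNA that cross-hybridised. Whether each array came from a separate animal is not stated, and p-values therefore rest on a spread between samples that may in part be technical. In bulk tissue, fewer cells of a type and less RNA per cell cannot be told apart. The plasma cell identity of the tumours was visible: of 8 measured plasma cell markers, XBP1, MZB1, SDC1, IRF4, CD38 and SLAMF7 averaged between 9.25 and 11.1 on the log2 scale, whereas POU2AF1 averaged 4.92 and CD27 4.15, beside a median gene of 4.78. Residual SD over all genes was 0.232, 0.193 and 0.288 on the 3 arrays of pomalidomide alone and 0.127 to 0.180 on the other 21.

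Cells detect foreign or misplaced nucleic acid through receptors that sit in different compartments. RIG-I (encoded by RIGI) and MDA5 (encoded by IFIH1) are helicases that bind double-stranded RNA in the cytosol and signal through the adaptor MAVS, TLR3 binds double-stranded RNA in endosomes and signals through TICAM1, and STING is an adaptor of the endoplasmic reticulum that responds to the cyclic dinucleotide made by the DNA sensor cGAS. DDX60 is an interferon-inducible helicase related to the RIG-I-like receptors. These routes converge on kinases such as TBK1 and on transcription factors of the IRF family, among them IRF7, which drives type I interferon genes. Secreted interferon then acts through JAK kinases and a transcription factor complex that contains IRF9, which raises many interferon-stimulated genes, several of the sensors included.

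Transcripts of all 7 genes rose with pomalidomide in its average effect, the mean of its 4 differences in tumours given no other drug, filanesib, dexamethasone, or both. STING1 rose by 1.14 ± 0.15 on the log2 scale (± SE of the model, 12 arrays against 12) and RIGI by 0.87 ± 0.13. DDX60 rose by 0.74 ± 0.11, IRF7 by 0.55 ± 0.11 and IRF9 by 0.50 ± 0.08. TLR3 rose by 0.48 ± 0.10 and IFIH1 by 0.46 ± 0.07. All 7 passed an adjusted p of 0.05 in limma, against 2.21% of all genes that passed as higher and 2.65% as lower, and their median was 0.55, against -0.01 for all genes. The difference was above 0 in all 4 backgrounds for 7 of 7 genes, against 10.1% of all genes. In 7 of 7 the means of the 4 pomalidomide groups lay above those of the 4 groups without the drug, against 3.84% of all genes. The 7 genes were chosen with earlier results of these data known. These shares and those below therefore describe the 7 genes and do not test them as a set. All 7 also passed without any single array and without replicates 1 and 3 of pomalidomide alone, the most variable arrays. Array by array, none of the 7 separated fully, and 0.107% of all genes did.

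**Figure D1:**
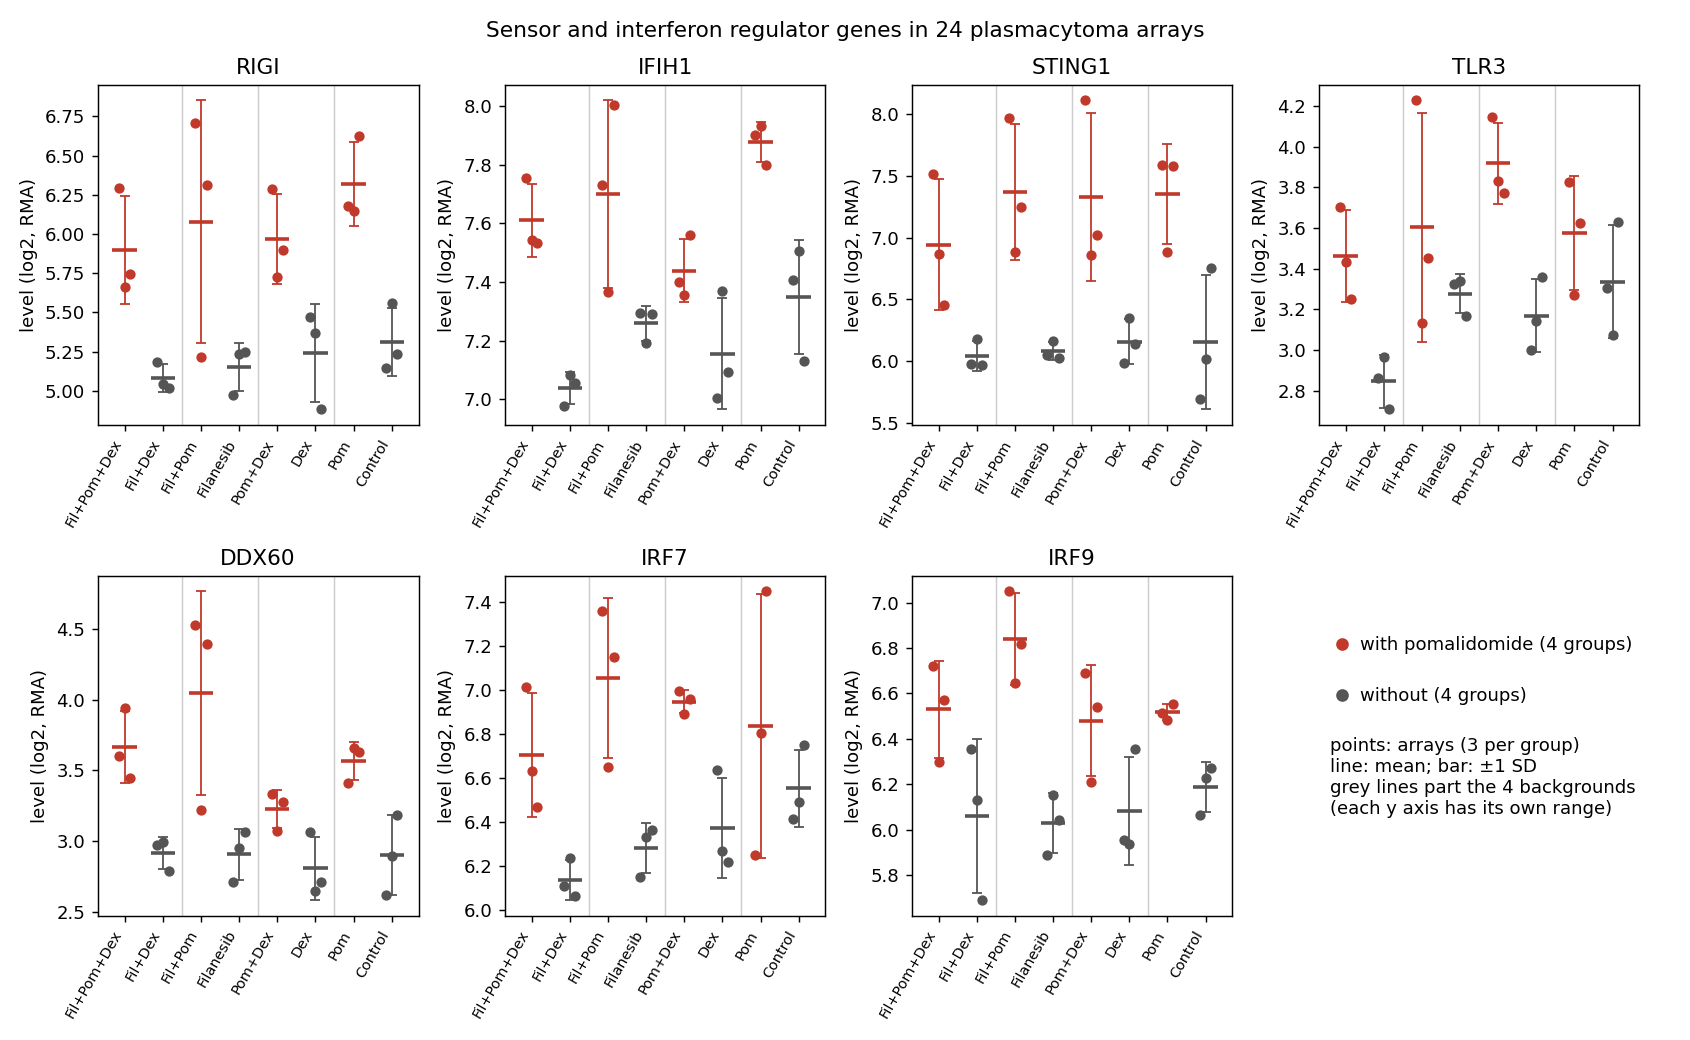
RMA log2 level (y axis) of each gene on each array (points), with the mean (line) and SD (bar) of the 3 arrays per group; each pomalidomide group (red) stands left of the group with the same other drugs but without pomalidomide (grey). All 7 genes have their 4 red means above their 4 grey means, and RIGI shows 1 low red point at 5.22 beside filanesib.

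Among the cytosolic RNA sensors, RIGI showed the larger difference. RIGI had levels of 6.18, 6.15 and 6.63 with pomalidomide alone, against 5.14, 5.56 and 5.24 in control tumours. With filanesib plus pomalidomide it had 6.71, 5.22 and 6.31, against 4.97, 5.23 and 5.25 with filanesib. The first pair of groups did not overlap, while the second did, through the array at 5.22. Pomalidomide plus dexamethasone gave 6.29, 5.72 and 5.90, against 5.47, 5.37 and 4.88 with dexamethasone. The triple combination gave 6.29, 5.66 and 5.74, against 5.18, 5.05 and 5.02 with filanesib plus dexamethasone. These last 2 pairs did not overlap, and 11 of 12 arrays with pomalidomide exceeded all 12 without it. The average difference corresponded to 1.83-fold (limma adjusted p = 0.000209).

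IFIH1, the MDA5 gene, had levels of 7.90, 7.93 and 7.80 with pomalidomide alone, against 7.41, 7.51 and 7.13 in control. With filanesib plus pomalidomide it had 7.73, 7.37 and 8.00, against 7.29, 7.19 and 7.29 with filanesib, so that both pairs of groups were apart. With pomalidomide plus dexamethasone the levels were 7.40, 7.36 and 7.56, against 7.0, 7.37 and 7.09 with dexamethasone, the 1 pair of the 4 that overlapped. In the triple combination they were 7.75, 7.54 and 7.53, against 6.98, 7.08 and 7.06 with filanesib plus dexamethasone. IFIH1 varied little within groups: its average effect was the smallest of the 7 in size, yet its adjusted p of 0.000209 in limma equalled that of RIGI. The fold was 1.37, and 9 of 12 pomalidomide arrays exceeded all 12 others.

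DDX60 was measured near the low end of the array (mean 3.25), where log2 differences tend to be compressed. It reached 4.53, 3.22 and 4.40 with filanesib plus pomalidomide, against 2.71, 2.95 and 3.06 with filanesib. Levels of 3.41, 3.65 and 3.63 were measured with pomalidomide alone, against 2.62, 2.90 and 3.19 in control. All 4 pairs of groups were apart, since pomalidomide plus dexamethasone gave 3.33, 3.07 and 3.27, against 3.06, 2.64 and 2.71 with dexamethasone, and the triple combination 3.60, 3.94 and 3.45, against 2.97, 2.99 and 2.79 with filanesib plus dexamethasone. The average fold was 1.67 (limma adjusted p = 0.000315), and 11 of 12 arrays with the drug exceeded all others. The neighbouring paralogue DDX60L rose by 0.74 ± 0.12, and since probes of close paralogues can share sequence, the 2 readings may not be independent.

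STING1, the adaptor of the DNA-sensing route, had the largest average difference of the 7, at 2.20-fold (limma adjusted p = 7.81e-05). It had levels of 7.59, 6.88 and 7.58 with pomalidomide alone, against 5.70, 6.02 and 6.75 in control. The control group was itself wide, yet its highest array stayed below the lowest of pomalidomide alone. With filanesib plus pomalidomide the levels were 7.97, 6.89 and 7.25, against 6.05, 6.16 and 6.02 with filanesib. With pomalidomide plus dexamethasone they were 8.11, 6.86 and 7.02, against 5.99, 6.35 and 6.14 with dexamethasone. The triple combination gave 7.51, 6.87 and 6.45, against 5.98, 6.18 and 5.97 with filanesib plus dexamethasone. No pair of groups overlapped, and 11 of 12 arrays with pomalidomide exceeded all 12 without. In the endosomal route, TLR3 was low (mean 3.40): its lowest, median and highest levels were 3.13, 3.66 and 4.23 on the 12 arrays with pomalidomide, against 2.71, 3.16 and 3.63 on the 12 without. The 2 sets of arrays overlapped broadly, with 6 of 12 above all others, and the average fold was 1.4 (limma adjusted p = 0.00596).

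The regulators rose by similar amounts. IRF7 had lowest, median and highest levels of 6.25, 6.92 and 7.45 with pomalidomide, against 6.06, 6.30 and 6.75 without, a 1.46-fold difference (limma adjusted p = 0.00259). Its 3 arrays of pomalidomide alone, at 6.25, 6.81 and 7.45, spanned the control values of 6.42, 6.49 and 6.75, whereas pomalidomide plus dexamethasone gave 6.99, 6.89 and 6.96, against 6.64, 6.27 and 6.22 with dexamethasone. IRF9 had 6.21, 6.56 and 7.05 as lowest, median and highest with pomalidomide, against 5.69, 6.10 and 6.36 without, a 1.42-fold difference (limma adjusted p = 5e-04). With filanesib plus pomalidomide, the group with the highest IRF9 mean, the levels were 7.05, 6.65 and 6.82, against 5.89, 6.15 and 6.04 with filanesib, and these groups did not overlap. Pomalidomide alone and control were also apart, with a lowest level of 6.48 against a highest of 6.27. Pomalidomide plus dexamethasone reached down to 6.21 and overlapped dexamethasone, which reached 6.35. The triple combination reached down to 6.30 and overlapped filanesib plus dexamethasone, which reached 6.36.

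Ordered by group mean, the 4 pomalidomide groups took the first 4 places for all 7 genes. For RIGI and STING1 the step from the lowest pomalidomide group to the highest group without it, 0.59 and 0.78, was also a gap between the arrays of those neighbours, and for DDX60 it was 0.31, again with no overlap. For IFIH1, TLR3, IRF7 and IRF9 these neighbouring groups overlapped. Which pomalidomide group came first varied: pomalidomide alone for RIGI and IFIH1, pomalidomide plus dexamethasone for TLR3, and filanesib plus pomalidomide for STING1, DDX60, IRF7 and IRF9. For each of the 7 the group in first place overlapped the group in second place. Control led the groups without pomalidomide for RIGI, IFIH1, TLR3, IRF7 and IRF9, and each time overlapped the group behind it.

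Within single backgrounds, with 3 arrays against 3, fewer genes passed. Pomalidomide alone against control raised 3 of 7 past the adjusted threshold of limma and lowered 0 of 7, against 0.504% and 1.47% of all genes. RIGI rose by 1.0 ± 0.26 (limma adjusted p = 0.0447), IFIH1 by 0.53 ± 0.14 (0.0442) and STING1 by 1.19 ± 0.31 (0.046). Of the other 4, DDX60 differed by 0.67 ± 0.23, IRF9 by 0.33 ± 0.16, IRF7 by 0.28 ± 0.21 and TLR3 by 0.24 ± 0.20, with adjusted p between 0.131 and 0.611. The arrays did not overlap, and lay higher, in 5 of 7 genes, against 6.57% of all genes, while 9.06% of all genes and 0 of 7 lay lower without overlap. The 3 calls sat close to the threshold: 0 of 7 passed without replicates 1 and 3 of pomalidomide alone, with array weights, or when these 2 groups alone were fitted, and 1 passed with arrays centred on their medians. Leaving out each of the 24 arrays in turn gave between 0 and 4 genes: 4 without filanesib plus pomalidomide replicate 2, 1 without dexamethasone replicate 2 or filanesib plus pomalidomide replicate 3, and 0 without control replicate 1 or 3, filanesib replicate 1 or 3, pomalidomide replicate 1 or 3, any replicate of filanesib plus dexamethasone, pomalidomide plus dexamethasone replicate 3 or triple combination replicate 2. The count was 2 without control replicate 2, filanesib replicate 2, dexamethasone replicate 1 or 3, pomalidomide replicate 2, filanesib plus pomalidomide replicate 1 or pomalidomide plus dexamethasone replicate 1.

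Beside filanesib, 2 of 7 genes rose in limma, against 0.175% of all genes. DDX60 rose by 1.14 ± 0.23 and IRF9 by 0.81 ± 0.16, each with an adjusted p of 0.0318. STING1 differed by 1.29 ± 0.31 (adjusted p = 0.0812), RIGI by 0.93 ± 0.26 (0.141), IRF7 by 0.77 ± 0.21 (0.136), IFIH1 by 0.44 ± 0.14 (0.188) and TLR3 by 0.33 ± 0.20 (0.614). Arrays lay higher without overlap in 5 of 7, against 9.39% of all genes, and lower in 0 of 7, against 9.83%. With array weights 5 of 7 passed, and when these 2 groups alone were fitted 0 passed. Without replicate 2 of filanesib plus pomalidomide, 5 of 7 passed and the differences were 1.56 for DDX60, 1.53 for STING1, 1.36 for RIGI, 0.91 for IRF9 and 0.61 for IFIH1. None passed without filanesib replicate 1 or 3 or filanesib plus pomalidomide replicate 1 or 3, 1 passed without filanesib replicate 2, and 3 without pomalidomide replicate 3 or pomalidomide plus dexamethasone replicate 1.

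Beside dexamethasone, 0 of 7 genes passed in limma, against 0.0269% of all genes, with adjusted p between 0.262 and 0.95, while 6 of 7 had an unadjusted p under 0.05, against 5.54% of all genes. The differences ran from 0.28 for IFIH1 to 1.17 ± 0.31 for STING1, and 5 of 7 genes had higher arrays that did not overlap and 0 of 7 lower ones, against 6.86% and 4.35% of all genes. In the triple combination against filanesib plus dexamethasone, 0 of 7 passed in limma, against 0.0202% of all genes, with adjusted p between 0.139 and 0.548 and an unadjusted p under 0.05 in 7 of 7, against 6.33% of all genes. There the differences ran from 0.47 for IRF9 to 0.90 ± 0.31 for STING1, IFIH1 differed by 0.57 ± 0.14, and 6 of 7 genes had higher arrays that did not overlap and 0 of 7 lower ones, against 6.17% and 7.36% of all genes. With array weights 4 of 7 passed.

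**Figure D2:**
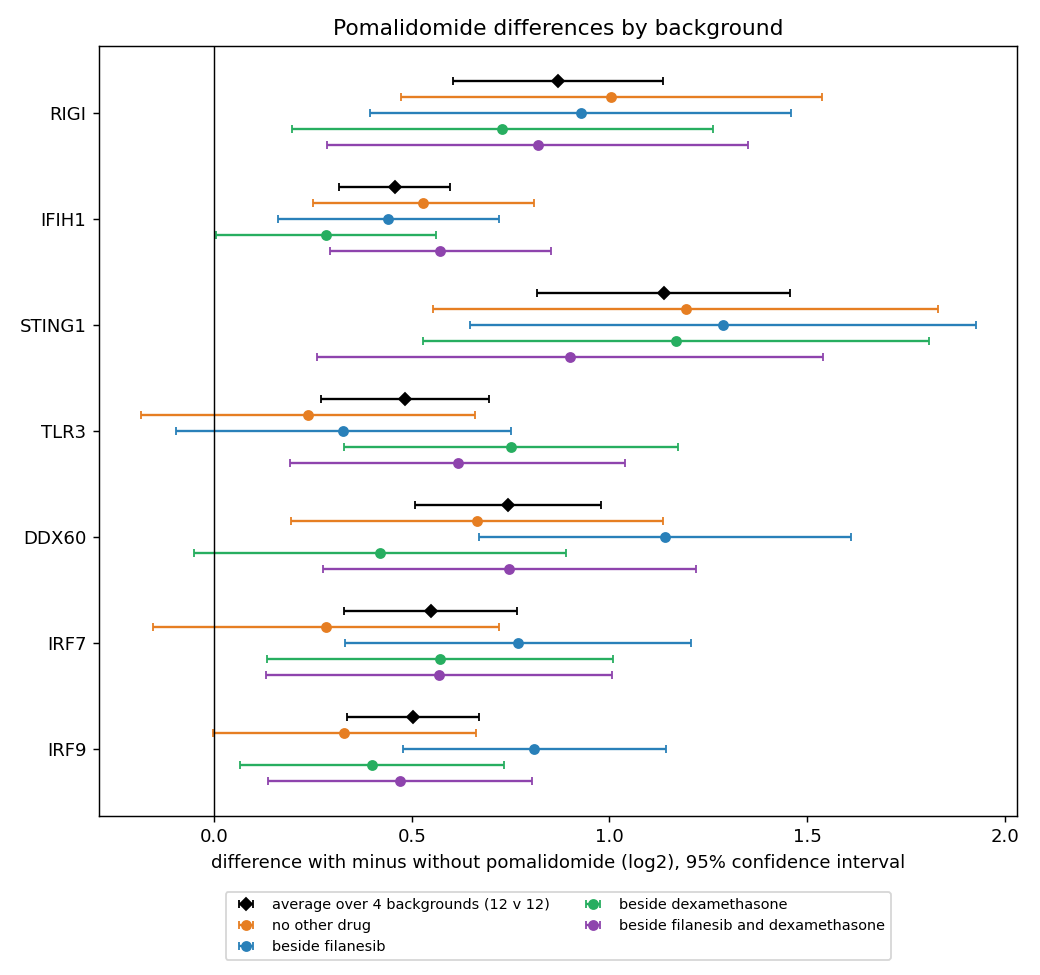
Difference with minus without pomalidomide (x axis, log2, with 95% confidence interval) for each gene, averaged over backgrounds (black) and within each background of 3 arrays against 3 (colours). All averages lie between 0.46 and 1.14, and the intervals of the 4 backgrounds overlap for each gene.

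Whether the size of the pomalidomide effect differed between backgrounds was tested directly. A moderated F test of the 4 differences passed for 0 of 7 genes, against 0.0336% of all genes, with limma adjusted p between 0.839 and 0.988 and no unadjusted p under 0.05. The interactions of pomalidomide with filanesib and with dexamethasone likewise passed for 0 of 7 genes each and for 0% of all genes, again with no unadjusted p under 0.05 among the 7, against 6.69% and 5.52% of all genes. The widest departures were 0.40 ± 0.23 for DDX60 with filanesib (95% confidence interval -0.07 to 0.87, limma adjusted p = 0.786), 0.40 ± 0.20 for TLR3 with dexamethasone (-0.02 to 0.83, adjusted p = 0.895) and -0.32 ± 0.23 for DDX60 with dexamethasone (-0.79 to 0.15, adjusted p = 0.922). These intervals leave room for differences in effect as large as 0.87 for DDX60, so a like response in all backgrounds was not shown. The interaction of filanesib with dexamethasone passed for 0 of 7 genes and 0% of all genes in limma, with no unadjusted p under 0.05 among the 7.

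Averaged over the backgrounds with and without the other drugs, filanesib left no passing difference in these genes. In its average effect (12 arrays against 12) 0 of 7 passed in limma, against 1.25% of all genes higher and 0.148% lower, and 1 of 7 had an unadjusted p under 0.05, against 11.7% of all genes. That gene was DDX60, at 0.26 ± 0.11 (limma adjusted p = 0.367). The DDX60 difference with filanesib was 0.005 against control and 0.11 beside dexamethasone. It was 0.48 beside pomalidomide and 0.44 beside both, and its interaction with pomalidomide did not pass. Without replicate 2 of filanesib plus pomalidomide, DDX60 passed at 0.36 (adjusted p = 0.018). TLR3 differed by -0.20 ± 0.10 and the other 5 genes by -0.16 to 0.05. For dexamethasone the average effect passed in 0 of 7 genes in limma, against 0% of all genes higher and 0.0134% lower. All 7 differences were below 0, from -0.24 to -0.10, with a median of -0.14, against -0.0005 for all genes. Since the 7 genes tended to move together across arrays, their like signs are not separate observations. IFIH1 had the 1 unadjusted p under 0.05 among the 7, against 7.68% of all genes, at -0.24 ± 0.07 (limma adjusted p = 0.449).

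**Figure D3:**
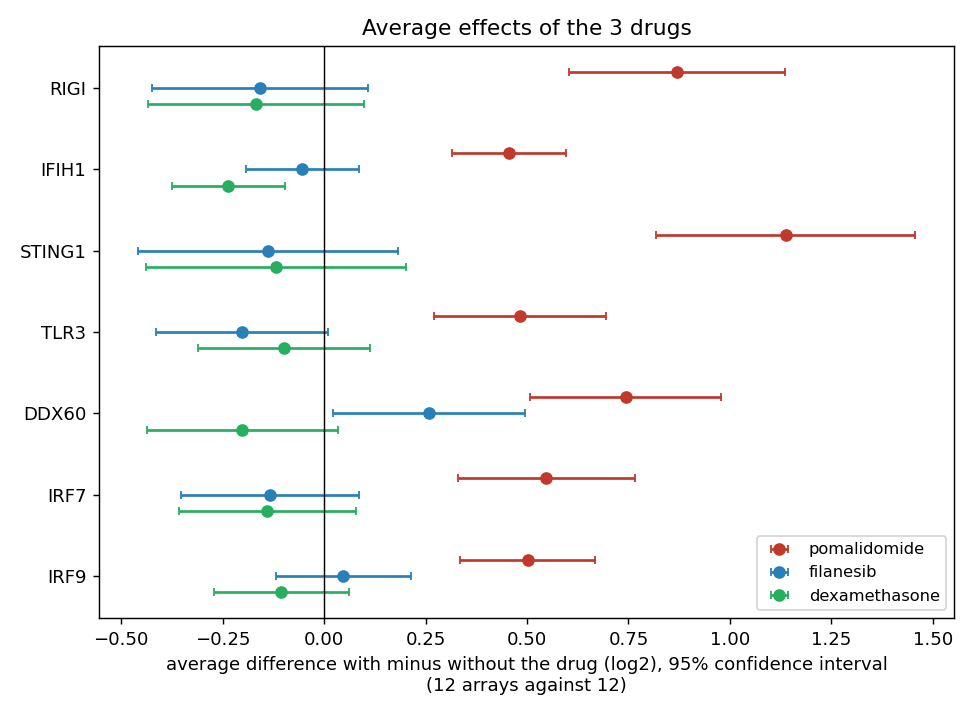
Average difference with minus without each drug (x axis, log2, with 95% confidence interval, 12 arrays against 12) for pomalidomide (red), filanesib (blue) and dexamethasone (green). The 7 pomalidomide intervals lie above 0, while the dexamethasone points all lie between -0.24 and -0.10.

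The study asked how filanesib adds to pomalidomide plus dexamethasone, and in that comparison 0 of 7 genes passed in limma, against 0.00672% of all genes higher and 0% lower. RIGI differed by -0.07 ± 0.26, IRF9 by 0.05 ± 0.16, IFIH1 by 0.17 ± 0.14, IRF7 by -0.24 ± 0.21 and STING1 by -0.38 ± 0.31. TLR3 had 3.70, 3.43 and 3.25 in the triple combination, against 4.15, 3.83 and 3.77 with pomalidomide plus dexamethasone, a difference of -0.46 ± 0.20 and the 1 unadjusted p under 0.05 of the 7 (limma adjusted p = 0.627), against 7.29% of all genes. DDX60 had 3.60, 3.94 and 3.45, against 3.33, 3.07 and 3.27, a difference of 0.44 ± 0.23 (adjusted p = 0.717). Neither pair overlapped, TLR3 lying lower and DDX60 higher with filanesib, as 8.53% and 7.22% of all genes did in those directions. The sign for RIGI, STING1 and IRF9 turned when single arrays of these groups were left out.

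The remaining comparisons with control share its 3 arrays with that of pomalidomide alone. Filanesib plus pomalidomide against control raised 1 of 7 genes in limma and lowered 0 of 7, against 0.0873% and 0.0537% of all genes. The gene that rose was DDX60, by 1.15 ± 0.23 (adjusted p = 0.0372). The call was lost without any 1 of the 3 control arrays, without replicate 1 or 3 of filanesib plus pomalidomide, and without replicate 3 of filanesib plus dexamethasone or of pomalidomide plus dexamethasone, and without replicate 2 of filanesib plus pomalidomide 2 of 7 genes passed. For pomalidomide plus dexamethasone 0 of 7 passed in limma, against 0.0941% of all genes higher and 0.0672% lower, with 3 of 7 unadjusted p-values under 0.05, against 8.3% of all genes, and STING1 at 1.17 ± 0.31. For the triple combination 0 of 7 passed, against 0.0739% of all genes higher and 0.181% lower, with 4 of 7 unadjusted p-values under 0.05, against 10.6% of all genes, and DDX60 at 0.76 ± 0.23, and 1 passed without replicate 2 of filanesib plus pomalidomide. In the groups without pomalidomide, limma passed 0 of 7 genes for filanesib (0% of all genes, 0 unadjusted p-values under 0.05, against 3.94% of all genes), 0 for dexamethasone (0.00672% of all genes, 0 unadjusted, against 3.9%) and 0 for the pair of them (0% of all genes, 2 unadjusted, against 6.03% of all genes). Those 2 were IFIH1 at -0.31 ± 0.14 and TLR3 at -0.49 ± 0.20, both lower than control.

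Spread between arrays of a group was larger with pomalidomide for 6 of the 7 genes, in part through 1 array. The pooled SD within groups for IRF7 was 0.377 with pomalidomide and 0.161 without, for RIGI 0.466 and 0.211, and for STING1 0.551 and 0.294. It was 0.350 and 0.184 for TLR3, 0.394 and 0.210 for DDX60, and 0.183 and 0.142 for IFIH1. IRF9 went the other way, with 0.193 with pomalidomide and 0.224 without. Over all genes the median SD was 0.183 with and 0.158 without the drug. The median ratio of the SD with to that without was 1.16, so most genes had a larger SD with the drug. Among all genes the ratio stood at percentile 95.5 for IRF7, 94.0 for RIGI, 88.6 for TLR3 and 88.0 for DDX60. It stood at 87.8 for STING1, 60.8 for IFIH1 and 23.4 for IRF9. Without replicate 2 of filanesib plus pomalidomide, an omission chosen after seeing the data, the SD with pomalidomide was 0.173 for DDX60 and 0.120 for IFIH1, both then below the SD without the drug, and 0.299 for RIGI. IFIH1 also fell below, at 0.136, without replicate 3 of that group. RIGI, STING1, IRF7 and TLR3 kept larger SDs with the drug under each omission of a single array with pomalidomide. These ratios were not tested.

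Single arrays moved several of the genes together. Replicate 2 of filanesib plus pomalidomide lay below its group mean for all 7 genes, by 0.51 on average, and replicate 1 of the same group lay above it for all 7, by 0.41 on average. On the first of these, RIGI stood at 5.22, inside the range of filanesib alone, whereas IRF9 at 6.65 and STING1 at 6.89 stayed above it. Replicate 2 of pomalidomide plus dexamethasone was the third array of 24 with all 7 genes on 1 side of the group mean, below it. The other 322 genes that rose with pomalidomide had median deviations of -0.16, 0.11 and -0.09 on those same 3 arrays, in the same directions as the 7 genes. The 394 genes that fell with pomalidomide had smaller median deviations there, of 0.02, -0.01 and 0.07. What set these arrays apart was not tested. Without replicate 2 of filanesib plus pomalidomide, all 7 genes still rose in the average effect of pomalidomide, RIGI by 0.98, DDX60 by 0.85 and STING1 by 1.20.

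**Figure D4:**
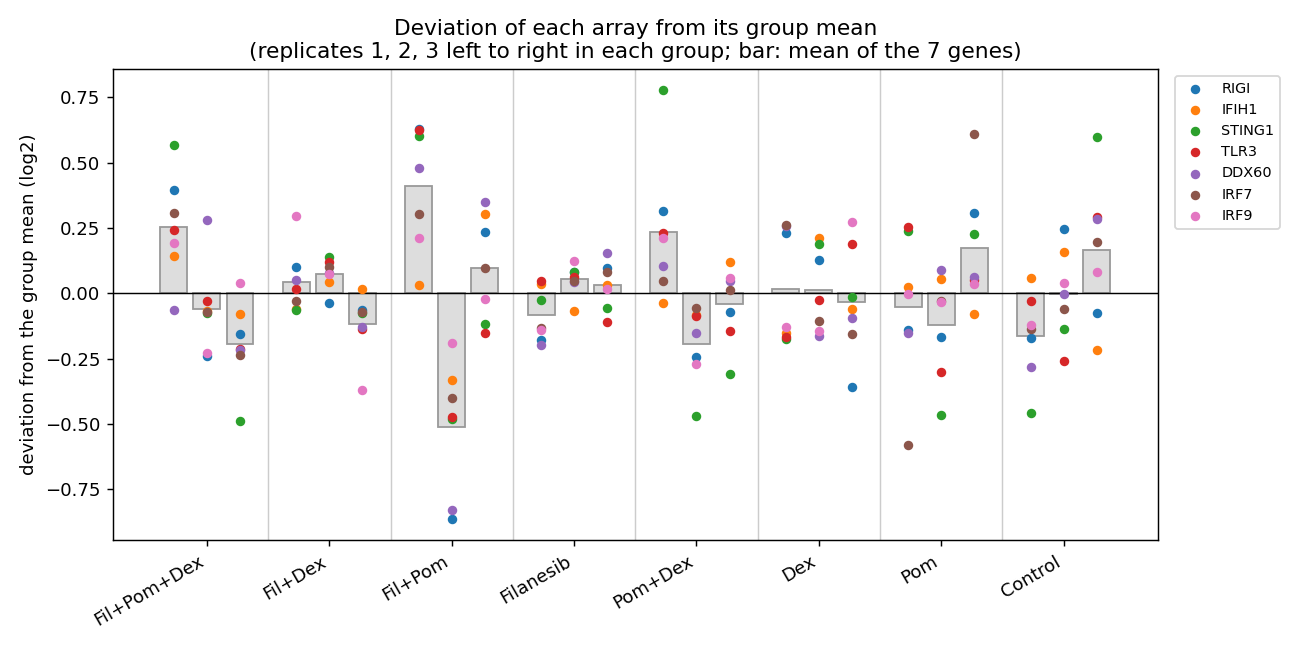
Deviation of each gene from its group mean (y axis, log2) on each of the 24 arrays, with the 7 genes as coloured points and their mean as a grey bar. The lowest bar, replicate 2 of filanesib plus pomalidomide, has all 7 points below 0, and replicate 1 of the same group has all 7 above 0.

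Across arrays the 7 genes tended to move with each other. The 7 genes differed on average between arrays with and without pomalidomide, which can raise correlations over all 24 arrays. Correlations are therefore given within each set of 12, as descriptions of arrays that share groups and processing. Among the 21 pairs of genes, Pearson's r ran from -0.06 to 0.80 with a median of 0.50 on the 12 arrays with pomalidomide, and from -0.43 to 0.62 with a median of 0.31 on the 12 without. Spearman's rho had medians of 0.50 and 0.24 there. After subtraction of group means, r was above 0 for 21 of 21 pairs over the 24 arrays. It ran from 0.07 to 0.82 with a median of 0.46. These values, and those on the 12 arrays with pomalidomide, include replicates 1 and 2 of filanesib plus pomalidomide. There all 7 genes deviated to the same side, by 0.41 and -0.51 on average. Correlations without these arrays were not computed, so how far the signs rest on them was not tested.

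Genes outside the 7 with the most similar pattern were sought among genes at or above the median level. The closest to the mean z-score of the 7 over 24 arrays were SLFN5 (r = 0.95), GRN (r = 0.94), GAS6-DT (r = 0.93), IFITM1 (r = 0.92) and MAP2 (r = 0.92). On the 12 arrays with pomalidomide their r ran from 0.79 to 0.87, and on the 12 without from 0.56 to 0.70. For single genes, the nearest were IFITM1 for RIGI (r = 0.90), HERC5 for IFIH1 (r = 0.85), GRN for STING1 (r = 0.94), IL17RC for TLR3 (r = 0.85), SLFN5 for DDX60 (r = 0.90), GAS6-DT for IRF7 (r = 0.88) and XAF1 for IRF9 (r = 0.87). On the 12 arrays with pomalidomide, r for these 7 pairs ran from 0.71 (IFIH1 and HERC5) to 0.91 (STING1 and GRN). On the 12 without, it was 0.67 for IRF7 and GAS6-DT, 0.64 for TLR3 and IL17RC, and 0.63 for IFIH1 and HERC5. It was 0.61 for STING1 and GRN, 0.49 for RIGI and IFITM1, 0.46 for DDX60 and SLFN5 and 0.39 for IRF9 and XAF1. Each partner was the closest of 7437 genes searched over the 24 arrays, a choice that favours high r.

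Around the 7 genes, other parts of the pathway moved unevenly in the average effect of pomalidomide. In that effect 2.21% of all genes passed as higher and 2.65% as lower in limma. The lists, too, were chosen with earlier results of these data known. Of 15 measured further sensors (22 listed), 4 rose, 0 fell and 11 did not pass, and the list's median difference was 0.0003, against -0.01 for all genes. OAS1, OAS2, OAS3, IFI16, ZNFX1, NLRC5 and DDX3X were listed but not measured, so these values do not cover them. DDX60L rose by 0.74 ± 0.12, and EIF2AK2, the RNA-activated kinase PKR, by 0.48 ± 0.08 (limma adjusted p = 0.000404 and 0.000735). TLR7, the endosomal receptor for single-stranded RNA, rose by 0.45 ± 0.12 (adjusted p = 0.0358), and OASL, a protein related to the oligoadenylate synthetases, by 0.31 ± 0.08 (adjusted p = 0.0312). The calls for TLR7 and OASL were lost in 12 and 8 of the 24 omissions of single arrays, with adjusted p up to 0.0784 and 0.0645, and that for OASL also without replicates 1 and 3 of pomalidomide alone (0.0571). Chosen after their values were seen, CGAS, the enzyme upstream of STING, differed by -0.18 ± 0.11 (adjusted p = 0.471), and DHX58, the third RIG-I-like receptor, by 0.18 ± 0.08 (adjusted p = 0.186, and 0.0456 without replicate 2 of filanesib plus pomalidomide).

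Adaptors and kinases between the sensors and the IRF factors had no member past the threshold, with TRIM25 near it. Of 12 measured (15 listed), 0 rose and 0 fell in limma, against 2.21% and 2.65% of all genes, and the median difference was 0.01. An unadjusted p under 0.05 was found for 2 of the 12, about the share of 17.3% seen over all genes. Those 2 were TRIM25, the ubiquitin ligase that acts on RIG-I, at 0.20 ± 0.06 (adjusted p = 0.0659), and TRAF3, a ubiquitin ligase of the MAVS and TICAM1 routes, at 0.16 ± 0.07 (0.185). TRIM25 passed in 5 of the 24 omissions of single arrays, with adjusted p from 0.0343 to 0.0494, without control replicate 3, filanesib replicate 2, pomalidomide replicate 3, pomalidomide plus dexamethasone replicate 2 or triple combination replicate 2. It also passed with a further quantile normalisation (0.0459), with dim genes left out (0.0498), with array weights (0.00755) and without replicates 1 and 3 of pomalidomide alone (0.0466). TRAF3 passed without pomalidomide replicate 3 (adjusted p = 0.00909), with array weights (0.0151) and without replicates 1 and 3 of pomalidomide alone (0.0131). AZI2, an adaptor of TBK1, differed by 0.12 ± 0.07, and TICAM1, the adaptor of TLR3, by -0.10 ± 0.09. Chosen after their values were seen, MAVS differed by 0.01 ± 0.07 and TBK1 by 0.01 ± 0.09.

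**Figure D5:**
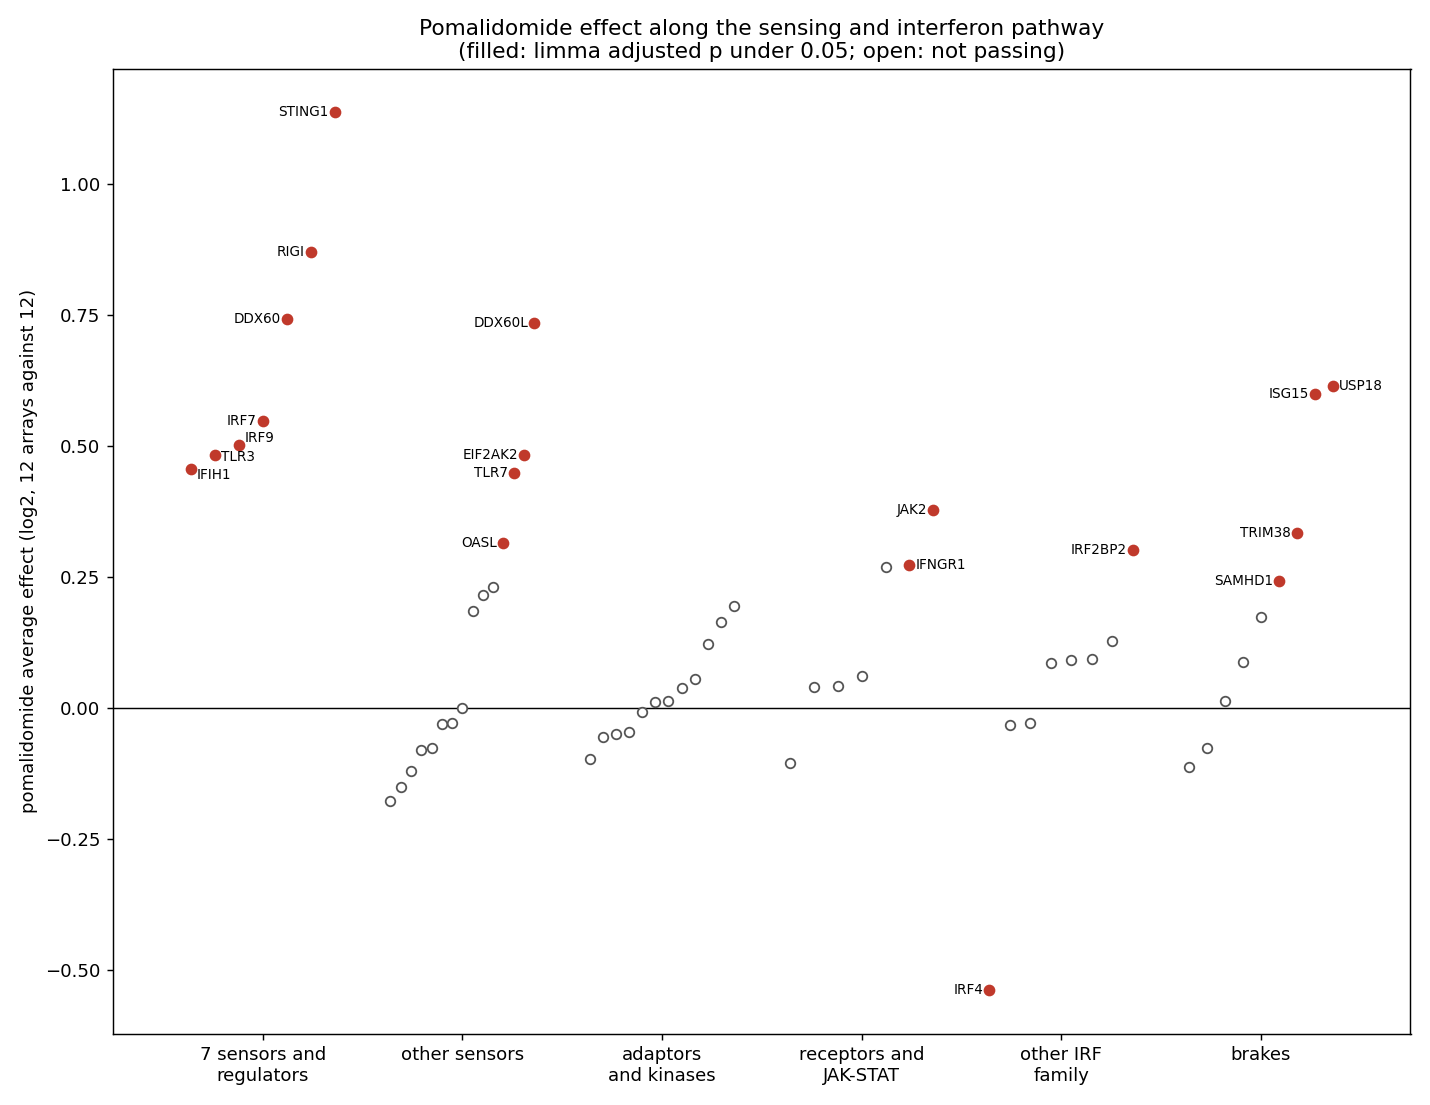
Average pomalidomide effect (y axis, log2, 12 arrays against 12) for each measured gene in 6 groups along the x axis; filled points passed an adjusted p of 0.05 in limma and are named, open points did not pass. No point is filled among the 12 adaptors and kinases, and IRF4 is the 1 filled point below 0.

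Of 13 interferon receptor and JAK-STAT genes listed, 7 were measured. Of these, 2 rose and 0 fell, against 2.21% and 2.65% of all genes. JAK2 rose by 0.38 ± 0.10 (limma adjusted p = 0.0343) and IFNGR1, a chain of the interferon gamma receptor, by 0.27 ± 0.07 (0.0311), with a list median of 0.06. Both calls were fragile, lost in 14 and 9 of the 24 omissions of single arrays with adjusted p up to 0.0763 for JAK2, and IFNGR1 fell back to 0.16 (adjusted p = 0.179) without replicates 1 and 3 of pomalidomide alone. STAT4 differed by 0.27 ± 0.10 with pomalidomide (adjusted p = 0.152, and 0.0291 without replicate 2 of filanesib plus pomalidomide), and rose by 0.45 with filanesib (adjusted p = 0.0217). The filanesib call for STAT4 was lost without replicate 3 of filanesib, replicate 3 of filanesib plus dexamethasone or replicate 2 of the triple combination (adjusted p = 0.0521 to 0.0551), and without replicates 1 and 3 of pomalidomide alone (0.0789). TYK2 differed by -0.11 ± 0.07. The 21 interferon ligand genes listed had no probe set under their symbols in the probe table and were not analysed here.

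Among 8 measured genes of the IRF family other than IRF7 and IRF9 (9 listed, with the IRF2 binding proteins), 1 rose, 1 fell and 6 did not pass, with a median of 0.09. Over all genes 2.21% rose and 2.65% fell. IRF4, the plasma cell factor on which myeloma cells depend, fell by 0.54 ± 0.11 (limma adjusted p = 0.00557). Its difference was -0.74 with pomalidomide alone, -0.35 beside filanesib, -0.54 beside dexamethasone and -0.53 beside both, opposite in sign to IRF7 and IRF9 in each background. IRF2BP2, a corepressor that binds IRF2, rose by 0.30 ± 0.07 (adjusted p = 0.0161), while its second, dimmer probe set differed by 0.03 (adjusted p = 0.944 in a fit of every probe set), so the 2 probe sets did not give the same answer. IRF1 differed by 0.09 ± 0.05 and IRF8 by 0.13 ± 0.09.

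Of 9 measured genes that restrain the pathway (15 listed), 4 rose, 0 fell and 5 did not pass, with a median of 0.17. Over all genes 2.21% rose and 2.65% fell. USP18, which removes ISG15 from proteins and blocks the type I interferon receptor, rose by 0.61 ± 0.13 (limma adjusted p = 0.00628). ISG15, the ubiquitin-like modifier that in human cells stabilises USP18, rose by 0.60 ± 0.15 (adjusted p = 0.0196). TRIM38, a ubiquitin ligase that limits TLR signalling, rose by 0.33 ± 0.08 (0.0208) and SAMHD1, a nucleotide-degrading restriction factor, by 0.24 ± 0.07 (0.0324). The call for SAMHD1 was lost in 13 of the 24 omissions of single arrays, with adjusted p up to 0.0744 over all alternatives.

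Markers of other cell types were read from the same arrays, since sensor and interferon genes are also expressed by leukocytes and stroma. Of 8 measured macrophage markers (14 listed), CD68 rose by 0.99 ± 0.09 (limma adjusted p = 4.31e-07) and 7 did not pass, with a list median of 0.01. The mean of the 8 ran from 4.89 to 5.14 over arrays with pomalidomide and from 4.81 to 5.09 over those without. CD68 itself averaged 9.49 and CTSS, a lysosomal protease, 9.45, far above the median gene, whereas TYROBP averaged 4.09, MARCO 3.81, CD14 3.07, CD163 2.95, LYZ 2.67 and CSF1R 4.37, all below it. None passed among 2 measured plasmacytoid dendritic cell markers (6 listed), 3 fibroblast (9 listed), 6 endothelial (8 listed) and 4 T and NK cell markers (7 listed). The means of each of these lists overlapped between arrays with and without pomalidomide. The 2 plasmacytoid dendritic cell markers were NRP1 and TCF4. CLEC4C, LILRA4, COL1A1, CD3D and CD3E were among the listed markers not measured, which limits what these lists can show. Endothelial markers, for example, averaged 3.76 to 4.05 per array with pomalidomide and 3.70 to 4.10 without. Of the 8 plasma cell markers, CD38 rose by 0.18 ± 0.05 (adjusted p = 0.0304, lost in 8 of the 24 omissions) and IRF4 fell. Host cells were of the mouse, and human probe sets register them only by cross-hybridisation, so these markers could miss a change in host cells. The part of other cells in the differences of the 7 genes was not tested.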

How the data were processed

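Expression was measured on 24 arrays, 3 in each of 8 groups. The deposited values were log2 levels per probe set. Per the submitters' processing notes the authors used RMA and Affymetrix Expression Console, of which no version is given in the sources used here. Because RMA aligns the distributions of the arrays, it hides any shift common to most genes. Array medians lay between 3.65 and 3.73, and correlations between arrays were 0.951 to 0.990. Of 53617 probe sets, 16098 carried 1 gene symbol in the probe table, 37519 carried none and were left out, and for the 779 genes with several probe sets the 1 with the highest mean stood for the gene, giving 14884 genes.

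Tests used limma 3.58.1 under R 4.3.3. The model held 1 mean for each of the 8 groups over the 24 arrays and left 16 residual degrees of freedom, variances were moderated with eBayes, and two-sided p-values were adjusted over all 14884 genes by the Benjamini-Hochberg method, with a threshold of 0.05. Average effects set 12 arrays against 12. The number of arrays limits precision: the median SE was 0.07 for an average effect and 0.14 for 3 arrays against 3. In simulated data the pomalidomide average effect recovered 95 of 100 genes changed by 0.5 and 100 of 100 changed by 1, with 11 unchanged genes among 206 called. Pomalidomide alone against control recovered 41 and 91, with 4 unchanged among 136 called. The simulation drew independent normal noise with 1 SD per gene on all arrays, and the same change in every pomalidomide group. It therefore lacked the wider spread of the arrays of pomalidomide alone and any shared deviation of genes. These rates may not hold for the deposited arrays.

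All 7 genes were reported in every comparison. From the pathway lists, up to 4 genes with the smallest p in the pomalidomide average effect were named, and others where stated. The 7 genes and the lists were chosen with earlier results of these data known. Alternatives were a further quantile normalisation, centring on array medians, a filter on dim genes (mean under 4.78), weights per array, a variance prior with trend and robust estimation, every probe set, protein-coding genes only, the replicate number as a block, the compared groups alone, omission of each array in turn and of replicates 1 and 3 of pomalidomide alone. No sequence is shown, since the sequence tables at hand are of mouse genes and the measured genes are human.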

Additional observations from a re-analysis of the deposited data

How the results depend on the processing

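Counts below are of the 7 genes passing limma's adjusted threshold. The average effect of pomalidomide kept 7 of 7 under every alternative in which all were tested, omissions of single arrays included (with dim genes left out, TLR3 and DDX60 were not tested and 5 of 5 passed), and the highest adjusted p was 0.0417, for TLR3. Genes called in all numbered 723, against 512 to 879 over the omissions and 1210 with array weights. For pomalidomide alone against control the count of 3 became 1 with median centring and 0 with array weights, with the compared groups alone, and without replicates 1 and 3 of pomalidomide alone, where TLR3 turned to -0.0657 (the 1 array left is then assumed to vary like the other groups). Omissions gave 0 to 4, and IRF7 lay between -0.0234 (without replicate 3 of pomalidomide alone) and 0.574. Genes called there numbered 294, with 23 to 828 over the omissions, 166 after a further quantile normalisation, 62 with array weights, 3 with the compared groups alone and 2 without replicates 1 and 3 of pomalidomide alone. For filanesib plus pomalidomide against filanesib the count of 2 became 1 without dim genes, 5 with array weights and 0 with the compared groups alone, and 0 to 5 over omissions. Against control, filanesib plus pomalidomide went to 0 without dim genes and with the compared groups alone and to 3 with array weights, and 0 to 2 over omissions. With array weights, counts of 0 became 4 for the triple combination against filanesib plus dexamethasone and 1 each for pomalidomide plus dexamethasone and the triple combination against control (omissions 0 to 1 for the last). The filanesib average effect gave 0 to 1 over omissions. In the triple combination against pomalidomide plus dexamethasone, signs turned without single arrays for RIGI (-0.27 to 0.0873, with 0.05 and 0.0073 among the values), STING1 (-0.67 to 0.0047) and IRF9 (-0.0859 to 0.16, with -0.05). The cause of these shifts was not tested. Genes called in all also moved by over 1.5 times for the filanesib average effect (208, with 130 to 318 over omissions and 330 with array weights) and for filanesib plus pomalidomide against filanesib (37, with 2 to 76 and 322, 79 without replicates 1 and 3 of pomalidomide alone and 15 with the compared groups alone). For the triple combination they numbered 4 against filanesib plus dexamethasone (0 to 10 over omissions, 134 with array weights, 12 without those 2 arrays or without dim genes, and 14 over protein-coding genes) and 38 against control (8 to 89, and 350, 91 without those 2 arrays of pomalidomide alone and 64 with the compared groups alone). Against control they also numbered 21 for filanesib plus pomalidomide (3 to 57, 53 without the same arrays, and 149 with array weights) and 24 for pomalidomide plus dexamethasone (3 to 50, 56 without those arrays, and 138 with array weights). Same-numbered arrays did not deviate together (median correlation of residuals -0.0043, -0.03 and -0.03 for the 3 numbers), so the numbers were taken as names. A fit with the replicate block gave 7 for the pomalidomide average effect, 2 for pomalidomide alone against control, 2 for filanesib plus pomalidomide against filanesib and 1 against control, and 0 in the other comparisons. Tests over all groups have no version with the compared groups alone, and no gene had a second probe set to try.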
